A study of Homo sapiens with 8 samples.

Results

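AP-1 and the immediate early genes were followed in stretched A549 cells as 10 genes chosen by name: the Fos family genes FOS, FOSL1 and FOSL2, the Jun family genes JUN, JUNB and JUND, and the early response genes EGR1, NR4A1, IER2 and IER3. They were looked up by symbol among 13841 rows with 13751 distinct symbols. Of the 10 genes 9 had a row, 8 passed the filter on low counts, and JUN was not analysed here. A549 is a long-established human cell line of lung adenocarcinoma origin, used as a model of alveolar epithelium. All 8 libraries came from cells stretched by 15% at 15 cycles per min for 24 h and, after 6 days in culture, sorted by β-galactosidase staining. The 4 libraries of stained cells, labelled Senescent, are called positive 1, 3, 4 and 5, and the 4 of unstained cells, labelled Non_senescent, are called negative 2, 6, 7 and 8. Unstretched cells were not analysed here, 1 cell line was used, and the labels do not say whether the libraries are separate cultures, so p-values measure the spread between these libraries, which may be technical.

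AP-1 is a dimer of a Fos and a Jun protein, or of Jun proteins alone, joined through leucine zippers and bound to DNA at the site TGANTCA. Most of these genes are immediate early genes: serum, growth factors, stress or mechanical load switch them on within minutes through MAP kinases and the serum response factor, with no new protein needed, and the transcripts decay soon after. RNA here was taken days after the stretch had ended, and after a sort. JUND differs in that it is known for a steady level in resting cells.

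Promoter sequences are shown for the genes the results turn on: NR4A1 and JUND, whose groups did not overlap, FOS, which stood high in 1 library, and EGR1, which holds the known target site of the serum response factor. They are RefSeq sequences of GRCh38.p14, 250 bases before to 50 bases after an annotated start, read 5′ to 3′ along the gene. RefSeq promoters were found for FOS, FOSL2, JUN, JUNB, JUND, EGR1, NR4A1 and IER2. For NR4A1 2 promoters were found, the upstream one of which is shown, at chr12:52022582-52022881 (plus strand). Any other starts among its 22 annotated transcripts were not searched, so the window shown may not be the one used in these cells. The others lie at chr19:18281573-18281872 (JUND, minus strand), chr14:75278578-75278877 (FOS, plus strand) and chr5:138465229-138465528 (EGR1, plus strand). Capitals mark matches on either strand to the CArG box (the serum response factor site), to the cAMP response element TGACGTCA, to TGANTCA or to TGACATCA. No match of one motif overlapped a match of another.
NR4A1: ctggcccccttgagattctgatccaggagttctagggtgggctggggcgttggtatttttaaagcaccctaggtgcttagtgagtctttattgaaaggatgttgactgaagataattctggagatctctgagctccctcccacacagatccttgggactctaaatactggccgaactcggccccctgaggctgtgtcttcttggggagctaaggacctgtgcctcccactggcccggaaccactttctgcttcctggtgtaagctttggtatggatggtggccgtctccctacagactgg
JUND: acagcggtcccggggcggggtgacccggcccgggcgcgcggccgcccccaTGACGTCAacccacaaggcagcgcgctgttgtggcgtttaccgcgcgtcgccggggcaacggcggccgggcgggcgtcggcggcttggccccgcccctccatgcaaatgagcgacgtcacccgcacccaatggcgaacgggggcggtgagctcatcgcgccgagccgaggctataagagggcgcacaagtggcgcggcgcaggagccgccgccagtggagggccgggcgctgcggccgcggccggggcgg
FOS: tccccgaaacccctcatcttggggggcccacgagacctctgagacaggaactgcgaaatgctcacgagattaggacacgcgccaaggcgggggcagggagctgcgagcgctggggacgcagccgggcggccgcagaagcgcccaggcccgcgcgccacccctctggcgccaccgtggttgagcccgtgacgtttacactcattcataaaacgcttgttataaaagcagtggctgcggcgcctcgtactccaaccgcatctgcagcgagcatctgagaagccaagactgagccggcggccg
EGR1: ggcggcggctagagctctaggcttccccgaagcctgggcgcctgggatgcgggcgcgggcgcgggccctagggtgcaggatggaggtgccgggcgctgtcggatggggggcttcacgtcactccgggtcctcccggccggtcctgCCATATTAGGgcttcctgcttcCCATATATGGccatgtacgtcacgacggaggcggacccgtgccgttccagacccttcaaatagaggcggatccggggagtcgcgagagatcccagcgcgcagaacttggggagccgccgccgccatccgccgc
EGR1 held 2 CArG boxes, at 105 to 96 and at 83 to 74 bases before the start, and 1.29% of 35116 promoters of this length held at least 1. JUND held 1 TGACGTCA, 200 to 193 bases before the start, which 1.85% of promoters held. FOSL2 had 1 TGANTCA just after its start (7.71% of promoters), and JUN had 1 TGACATCA, 67 to 60 bases before its start (2.61% of promoters). No match was found in the windows of FOS, JUNB and IER2 or in the 2 windows of NR4A1, which says only that these letters are not in those windows.

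Each library held 5634961 counts (positive 1) to 7990839 counts (negative 2). Epithelial markers were present in every library (EPCAM, CDH1, KRT7, KRT8, KRT18 and KRT19, with a summed level of 2530 to 2992 CPM in positive libraries, against 2760 to 3562 CPM in negative ones; CPM is the count scaled to library size with TMM). Of the fibroblast markers, 4 of 6 had a row (COL1A1, COL3A1, DCN and LUM), together 9.06 to 13.01 CPM in positive and 7.27 to 10.81 CPM in negative libraries. Of 6 leukocyte markers, 3 had a row (CD14, LYZ and TYROBP), together 48.4 to 51.0 CPM in positive and 36.4 to 51.7 CPM in negative libraries, and of 5 endothelial markers 1 had a row (CDH5, at most 1.18 CPM in positive and 0.998 CPM in negative libraries). PTPRC, CD3E, PECAM1, VWF, KDR, TEK, COL1A2 and PDGFRB were not analysed here. Because RNA was taken from a mass of cells, more cells with a transcript and more transcript per cell cannot be told apart. Kits of this kind amplify 1 short stretch per gene, so levels of different genes are not compared.

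No gene passed the threshold in edgeR's quasi-likelihood test (0 of 11351 rows at an adjusted p under 0.05, 0%), and so none of the 8 tested AP-1 and early genes did. At an unadjusted p under 0.05 there were 2 of the 8, NR4A1 and JUND, both higher in positive cells, where 14.4% of all rows passed in either direction and 7.52% were higher. Those were also the 2 members with all 4 positive libraries above all 4 negative ones, which held for 5.0% of all rows. The median log2 fold change (positive over negative) of the 8 was 0.35 and that of all rows was -0.019. Without positive 1 the median of the 8 was -0.0024, and the same 2 genes had an unadjusted p under 0.05, where 10.4% of 11443 rows did. DESeq2's Wald test called 52 rows, 0.458% of those with an adjusted p, and 0 of the 8 genes.

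**Figure D1:**
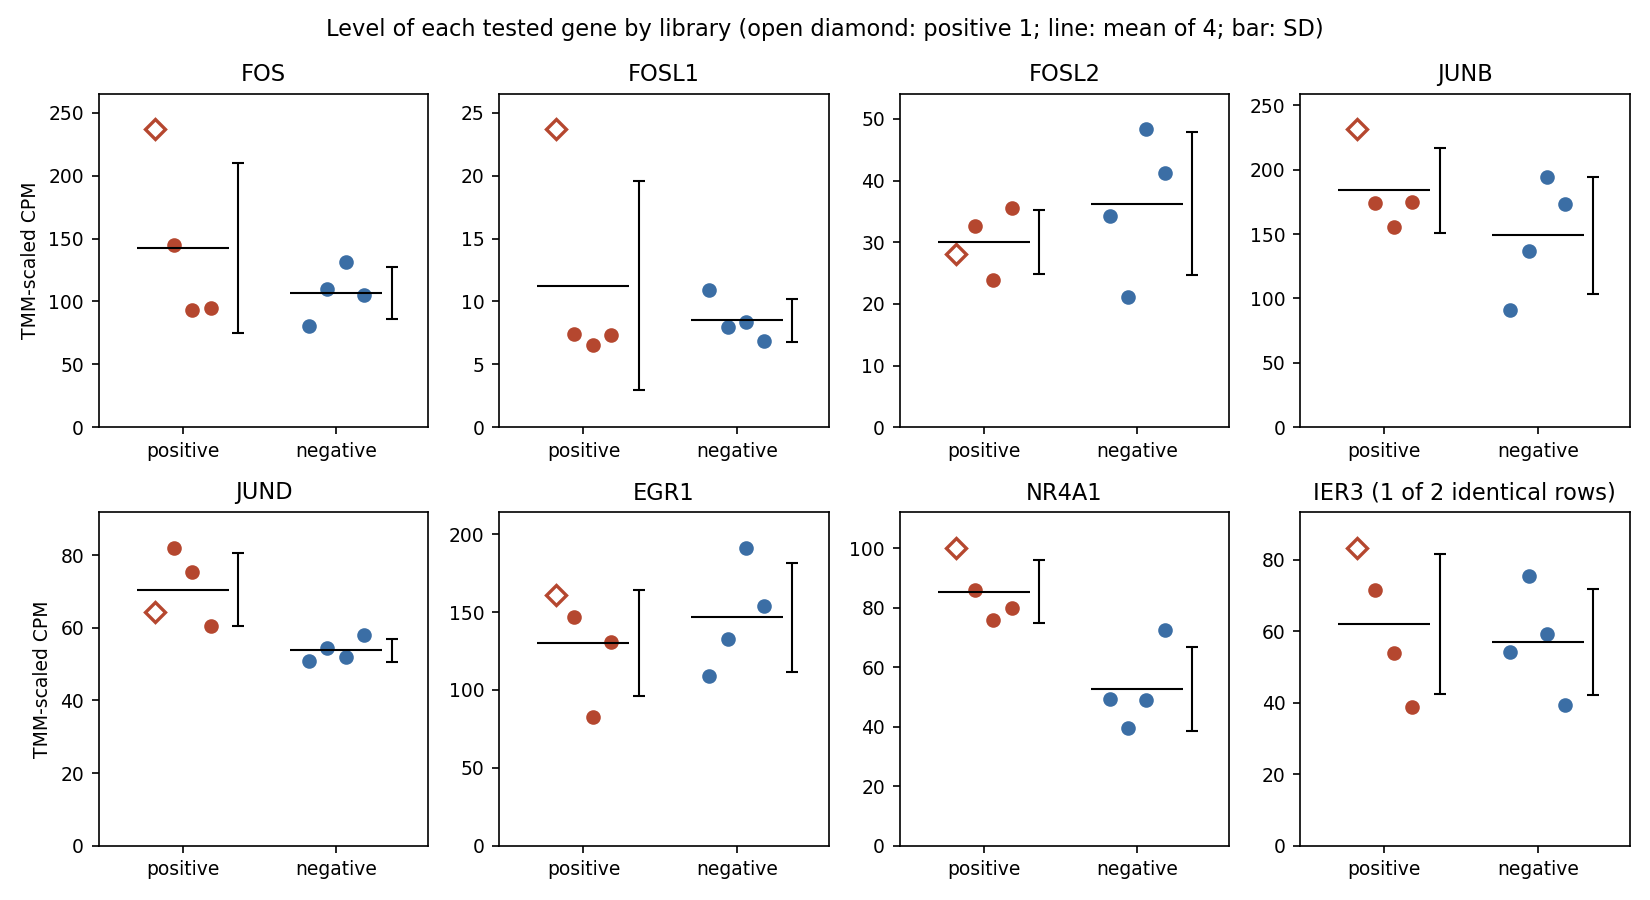
TMM-scaled CPM of the 8 tested AP-1 and early genes in the 4 positive (left) and 4 negative (right) libraries, with a separate axis per gene that starts at 0; points are libraries, the open diamond is positive 1, lines are means of 4 and bars are SD. The groups do not overlap for NR4A1 and JUND, and positive 1 is the highest library for FOS, FOSL1, JUNB, NR4A1 and IER3.

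NR4A1, an orphan nuclear receptor also called NUR77, had the largest fold change of the 8 genes. It had 100.1, 85.8, 75.8 and 79.8 CPM in positive 1, 3, 4 and 5, against 49.3, 39.4, 49.1 and 72.6 CPM in negative 2, 6, 7 and 8. Every positive library was above every negative one, although positive 4 exceeded negative 8 only narrowly. The means were 85.4 ± 10.6 CPM in positive and 52.6 ± 14.1 CPM in negative cells (SD, n = 4 each), a 1.62-fold difference with a log2 fold change of 0.70 ± 0.20 (SE; 95% interval 0.26 to 1.13; edgeR adjusted p = 0.309). It was 0.61 (0.16 to 1.06) without positive 1 and between 0.58 and 0.92 with each library left out in turn, the last without negative 8. NR4A1 lies on chromosome 12 at 52022832 to 52059507 (GRCh38, GENCODE 29), a protein-coding gene with 22 annotated transcripts of up to 8 exons.

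JUND, the Jun family member that is expressed most steadily, showed the same order of groups at a smaller size. Its level was 64.2, 82.1, 75.4 and 60.4 CPM in positive 1, 3, 4 and 5, against 50.9, 54.5, 52.0 and 57.9 CPM in negative 2, 6, 7 and 8. The negative libraries lay close together and positive 5 stood just above them, while positive 3 and 4 stood above positive 1. The log2 fold change was 0.39 ± 0.16 (SE; 95% interval 0.039 to 0.74; edgeR adjusted p = 0.323), or 1.31-fold. The estimate was 0.43 (0.078 to 0.79) without positive 1, and the interval spanned 0 without positive 3 (-0.094 to 0.71), positive 4 (-0.024 to 0.76), negative 6 (-0.019 to 0.80) or negative 7 (-0.048 to 0.79). After each library had been corrected for a trend with the length and GC content of transcripts, the estimate was 0.19 (-0.20 to 0.58). The longest JUND transcript, 1863 bases, is 69.7% G and C. JUND lies on chromosome 19 at 18279760 to 18281622.

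JUNB, a Jun protein that often opposes JUN in the control of growth, had overlapping groups. It was at 231, 174, 156 and 175 CPM in positive 1, 3, 4 and 5, against 91.0, 137, 195 and 173 CPM in negative 2, 6, 7 and 8. Positive 1 was the highest and negative 2 the lowest library. The log2 fold change of 0.30 (95% interval -0.20 to 0.81; edgeR adjusted p = 0.523) was 0.18 without positive 1 and 0.14 without negative 2. JUNB lies on chromosome 19 at 12791496 to 12793315 and is the only one of the 9 genes whose annotated transcripts all have 1 exon.

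Of the Fos family, FOS had 237, 145, 93.0 and 94.5 CPM in positive 1, 3, 4 and 5, against 80.7, 109.8, 131 and 105 CPM in negative 2, 6, 7 and 8. Positive 1 stood far above the rest, positive 3 was the second highest, and positive 4 and 5 lay within the range of the negative libraries. The log2 fold change was 0.41 (95% interval -0.21 to 1.03; edgeR adjusted p = 0.488) over all libraries and 0.053 (-0.42 to 0.52) without positive 1. FOS lies on chromosome 14 at 75278774 to 75282230.

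FOSL1, which encodes FRA1, a Fos protein tied to invasion and mesenchymal traits in carcinoma cells, was low apart from 1 library. It was at 23.7, 7.45, 6.53 and 7.34 CPM in positive 1, 3, 4 and 5 (142, 57, 49 and 56 counts), against 10.9, 7.95, 8.34 and 6.84 CPM in negative 2, 6, 7 and 8 (75, 47, 54 and 48 counts). Outside positive 1 the groups overlapped, and the log2 fold change of 0.39 (95% interval -0.47 to 1.25; edgeR adjusted p = 0.640) was -0.26 (-0.79 to 0.27) without it. FOSL2, which encodes the related FRA2, lay the other way, at 28.0, 32.7, 23.9 and 35.5 CPM in positive 1, 3, 4 and 5, against 34.2, 21.2, 48.3 and 41.2 CPM in negative 2, 6, 7 and 8. Its groups overlapped and positive 1 lay within the range of the rest (log2 fold change -0.27, 95% interval -0.81 to 0.27; edgeR adjusted p = 0.600). The FOSL2 estimate ranged from -0.46 without negative 6 to -0.11 without negative 7. FOSL1 lies on chromosome 11 at 65892049 to 65900573 and FOSL2 on chromosome 2 at 28392448 to 28417312.

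EGR1, a zinc finger factor with the 2 CArG boxes shown above, had 161, 147, 82.9 and 131 CPM in positive 1, 3, 4 and 5, against 109, 133, 191 and 154 CPM in negative 2, 6, 7 and 8. The highest value was that of negative 7 and the lowest that of positive 4. The log2 fold change was -0.17 (95% interval -0.67 to 0.33; edgeR adjusted p = 0.732), and it was 0.011 without positive 4 and -0.019 without negative 7. EGR1 lies on chromosome 5 at 138465490 to 138469315.

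IER3, an early gene that modulates cell death and NF-kappaB signalling, stood on 3 rows, 2 of which were identical. These 2 had 83.4, 71.6, 54.0 and 38.9 CPM in positive 1, 3, 4 and 5, against 54.1, 75.5, 59.3 and 39.5 CPM in negative 2, 6, 7 and 8, a log2 fold change of 0.12 (95% interval -0.43 to 0.67; edgeR adjusted p = 0.836). The other row equalled them in 4 libraries and held under 5 counts in the remaining 4, so its fold change cannot be read and IER3 is uncertain as a whole. The sources used here do not say how reads were divided between the rows. IER2, a small early nuclear protein, had 3, 0, 1 and 3 counts in positive 1, 3, 4 and 5, against 0, 0, 3 and 1 counts in negative 2, 6, 7 and 8, and was not tested. A count of 0 allows up to 0.375 to 0.490 CPM before TMM scaling in those libraries (3 counts of a total, for counting error only), so a difference in IER2 was not detectable at these counts. IER3 lies on chromosome 6 at 30743199 to 30744554 and IER2 on chromosome 19 at 13150415 to 13154908.

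**Figure D2:**
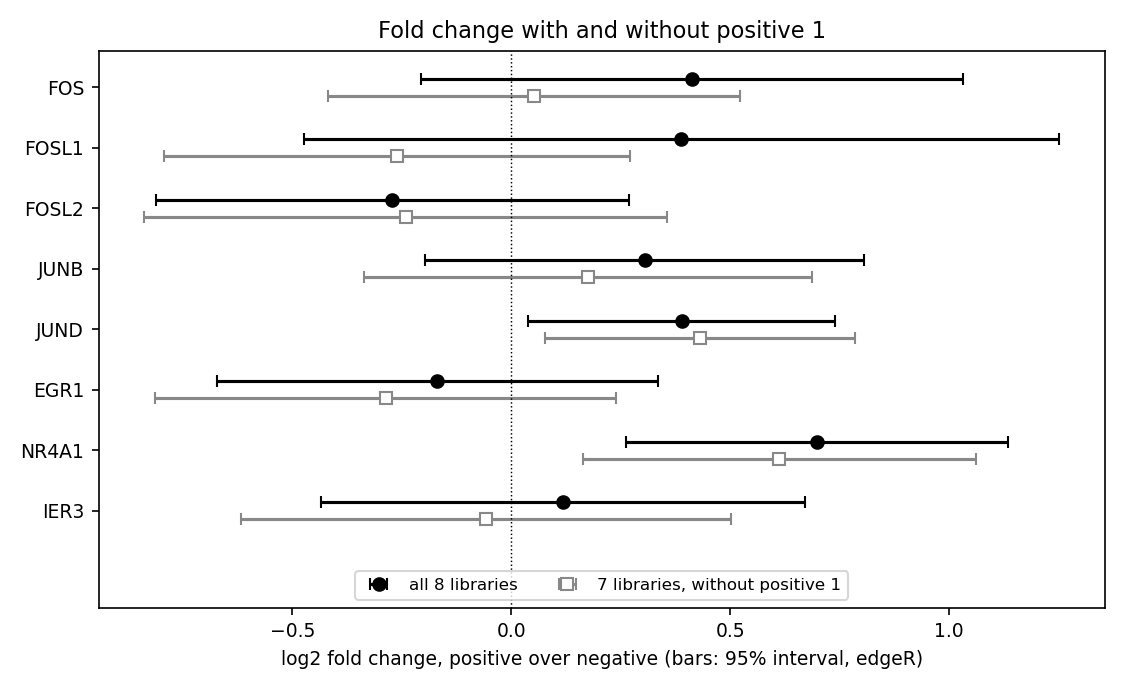
Log2 fold change, positive over negative, of the 8 tested genes with 95% intervals from edgeR, over all 8 libraries (black circles) and over the 7 without positive 1 (open squares). The interval clears 0 for NR4A1 and JUND both ways, whereas without positive 1 the estimate is 0.053 for FOS and -0.26 for FOSL1, beside 0.41 and 0.39 with it.

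Positive 1, the library with the fewest counts, was then set apart, as values with no test. It was the highest of the 8 libraries for 5 of the 8 genes (FOS, FOSL1, JUNB, NR4A1 and IER3) and the lowest for none. Over all tested rows it was highest for 23.9% and lowest for 2704 of 11351. Negative 2 was the highest library for 0 of the 8 genes, where it was highest for 29.4% of all tested rows. The mean log2-CPM of the 8 genes was 6.44 in positive 1. In positive 3, 4 and 5 it was 6.10, 5.73 and 5.84, against values of 5.66, 5.72, 6.02 and 5.88 for negative 2, 6, 7 and 8, so positive 3 was the next highest and the other groups overlapped. Against the mean of positive 3, 4 and 5, positive 1 was 1.70 higher in log2-CPM for FOSL1, 1.13 for FOS, 0.65 for IER3, 0.46 for both EGR1 and JUNB and 0.32 for NR4A1, and lower for FOSL2 (-0.11) and JUND (-0.16). FOSL1 and FOS thus lay at the 99.2nd and 96.0th percentile of all tested rows for this difference, and the other 6 between the 37.6th and the 86.2nd. The 12 mitochondrially encoded rows together were at 102.8 CPM in positive 1, at 16.52 to 22.61 CPM in the other positive and at 10.91 to 20.31 CPM in the negative libraries. Genes with 1 exon in every transcript came to 12970 CPM in positive 1, within the range of the other libraries (12230 to 22750 CPM). The fibroblast markers were at 13.01 CPM in positive 1, the highest of the 8 libraries. The part of these transcripts in the levels of early genes in positive 1 was not tested, and the labels say nothing of how that library was handled.

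**Figure D3:**
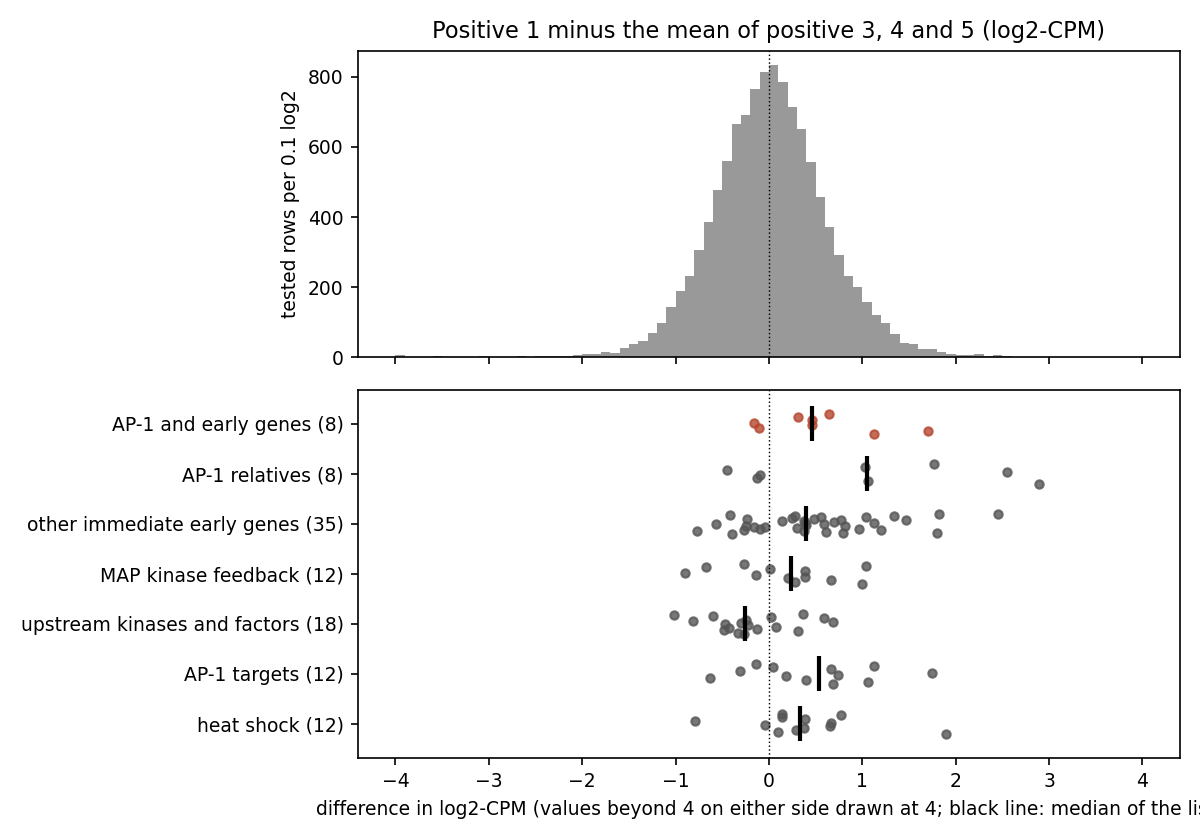
Positive 1 minus the mean of positive 3, 4 and 5 in log2-CPM, for all 11351 tested rows (upper panel, a histogram) and for the tested genes of each list (lower panel, 1 point per gene, black line at the list's median). The median of the AP-1 and early genes is 0.46, that of the AP-1 relatives 1.05 and that of the upstream kinases and factors -0.26, beside 0.0071 for all rows.

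Some partners and relatives of AP-1 also stood high in positive 1. Of 13 such genes 8 were tested, 2 of them higher at an unadjusted p under 0.05 and 0 lower. Of all rows, 7.52% were higher at that threshold and 6.85% lower. The median log2 fold change of the 8 was 0.49. Without positive 1 it was 0.15, and 0 of the 8 had an unadjusted p under 0.05, where 10.4% of 11443 rows did. Positive 1 was the highest library for 5 of the 8 (FOSB, ATF3, MAFK, MAFG and BATF3) and the lowest for 2 (ATF2 and ATF7). Over all tested rows it was the highest for 23.9% and the lowest for 2704 of 11351. FOSB, a Fos protein induced together with FOS, was at 130.3, 19.5, 18.8 and 14.2 CPM in positive 1, 3, 4 and 5, against 11.1, 16.4, 14.2 and 12.8 CPM in negative 2, 6, 7 and 8. ATF3, a stress-induced repressor that pairs with Jun proteins, was at 73.2, 14.4, 8.66 and 14.9 CPM in positive 1, 3, 4 and 5, against 5.96, 8.97, 9.57 and 9.70 CPM in negative 2, 6, 7 and 8. For both, positive 1 was several times every other library and the remaining groups overlapped. Their log2 fold changes of 1.74 ± 0.67 and 1.69 ± 0.58 (SE; edgeR adjusted p = 0.319 and 0.309) were 0.36 and 0.57 without positive 1, when neither had an unadjusted p under 0.05. MAFK, a small Maf protein without an activation domain, was at 38.7 CPM in positive 1, 7.99 to 13.4 CPM in the other positive and 8.29 to 12.8 CPM in the negative libraries (log2 fold change 0.81, or 0.15 without positive 1). ATF2, a partner of JUN that is controlled by phosphorylation, was at 34.7 to 39.5 CPM in positive and 42.8 to 47.8 CPM in negative libraries, without overlap (all positive below all negative in 4.14% of all rows), at a log2 fold change of -0.31 (95% interval -0.65 to 0.029; edgeR adjusted p = 0.372).

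Of 40 further immediate early genes 35 were tested, 3 of them higher at an unadjusted p under 0.05 and 0 lower. Of all rows, 7.52% were higher at that threshold and 6.85% lower. The median log2 fold change of the 35 was 0.23, and 0.080 without positive 1. In that fit 0 of the 35 had an unadjusted p under 0.05, where 10.4% of 11443 rows did. Positive 1 was the highest library for 21 of the 35, where it was highest for 23.9% of all tested rows. PER1, a clock gene with rapid induction by stress hormones and cAMP, was at 82.9 CPM in positive 1, 10.6 to 19.2 CPM in the other positive and 10.3 to 12.4 CPM in the negative libraries (log2 fold change 1.51, or 0.45 without positive 1; edgeR adjusted p = 0.312). CCNL1, a cyclin that binds splicing factors, was at 139.8 CPM in positive 1, 26.1 to 49.3 CPM in the other positive and 4.36 to 41.6 CPM in the negative libraries (1.43, or 0.76 without positive 1; edgeR adjusted p = 0.347). TIPARP, an ADP-ribosyltransferase, was at 35.4 CPM in positive 1, 19.1 to 21.9 CPM in the other positive and 9.11 to 21.0 CPM in the negative libraries (0.78, or 0.55 without positive 1; edgeR adjusted p = 0.312). PLK3, a stress-responsive kinase, had a log2 fold change of 0.72 (95% interval -0.052 to 1.49), or 0.26 without positive 1.

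**Figure D4:**
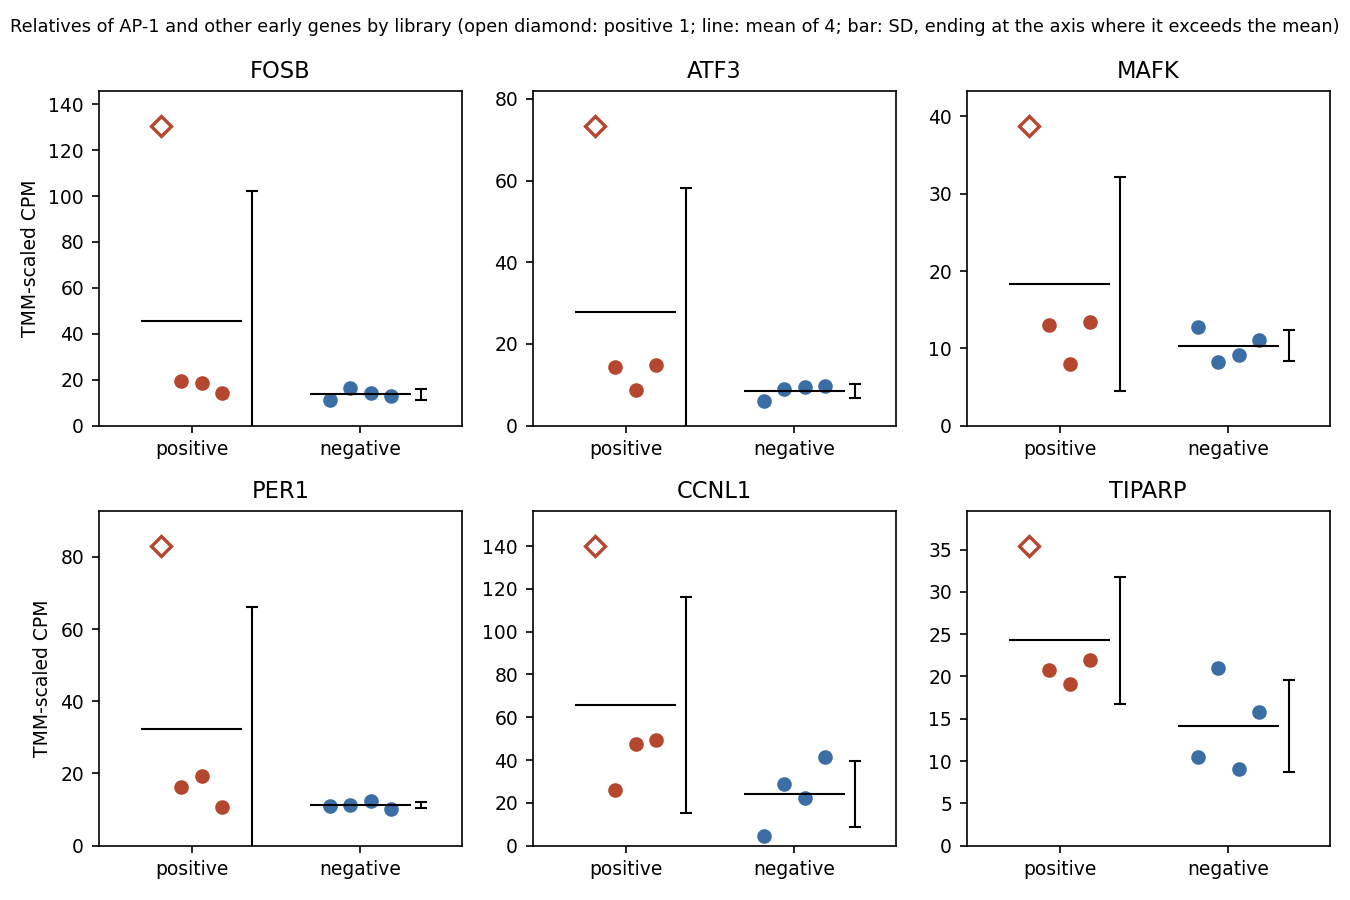
TMM-scaled CPM of 3 relatives of AP-1 (FOSB, ATF3, MAFK) and 3 other immediate early genes (PER1, CCNL1, TIPARP) in the 4 positive (left) and 4 negative (right) libraries, with a separate axis per gene that starts at 0; lines are means, bars are SD, and the open diamond is positive 1. Positive 1 stands above every other library in each panel, at 130.3 CPM for FOSB and 73.2 CPM for ATF3. ATF2 and PLK3, named from the same lists, are not drawn: positive 1 was the lowest library for ATF2 and the highest for PLK3.

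Feedback on MAP kinases is carried by phosphatases of the DUSP family and by Sprouty and SPRED proteins. Of 17 such genes 12 were tested, and none had an unadjusted p under 0.05, where 14.4% of all rows did. Their median log2 fold change was 0.050, and -0.019 without positive 1. DUSP1, an early phosphatase of stress kinases, was at 1688, 806, 1137 and 664 CPM in positive 1, 3, 4 and 5, against 660, 982, 772 and 902 CPM in negative 2, 6, 7 and 8, so positive 1 was again the highest in overlapping groups (0.37, or 0.067 without positive 1). SPRED3 and SPRED1 were at log2 fold changes of 0.83 (95% interval -0.017 to 1.68) and 0.38 (-0.018 to 0.78), and DUSP16 at -0.24 (-0.72 to 0.25). Without positive 1, SPRED3 was at 0.50, SPRED1 at 0.38 and DUSP16 at -0.057.

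The kinases and factors that act on these genes had mostly negative log2 fold changes. Of 22, 18 were tested and 14 were below 0, where 51.9% of all rows were. At an unadjusted p under 0.05 there were 3 lower and 0 higher, where 6.85% of all rows were lower, and without positive 1 there were 2 lower, where 5.49% of 11443 rows were. The median was -0.19, and -0.16 without positive 1. Positive 1 was the lowest library for 9 of the 18 and the highest for 3. Over all tested rows it was lowest for 2704 of 11351 and highest for 23.9%. MAPK14, the stress kinase p38 alpha, was at 21.5, 29.01, 23.7 and 27.3 CPM in positive 1, 3, 4 and 5, against 44.6, 40.1, 37.1 and 32.1 CPM in negative 2, 6, 7 and 8, without overlap, as in 4.14% of all rows. Its log2 fold change was -0.60 ± 0.19 (SE; 95% interval -1.01 to -0.19; edgeR adjusted p = 0.309), and -0.53 without positive 1. MAPK9, the Jun kinase JNK2, was at -0.54 (-0.97 to -0.11; edgeR adjusted p = 0.312) over all libraries, and at -0.36 without negative 2. MAPK3, which encodes ERK1, was at -0.38 (-0.77 to 0.0024).

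Of 21 genes that AP-1 is known to activate 12 were tested, with a median log2 fold change of 0.098, and 0.021 without positive 1. At an unadjusted p under 0.05 there was 1 higher and 0 lower, where 7.52% of all rows were higher and 6.85% lower. The 1 was PLAUR, the urokinase receptor, at 189 CPM in positive 1, 72.6 to 101.0 CPM in the other positive and 37.1 to 86.0 CPM in the negative libraries (0.76 ± 0.31, SE; edgeR adjusted p = 0.320; 0.42 without positive 1). EREG, a growth factor of the EGF family, was at 24.0 CPM in positive 1 and at 3.05 to 11.2 CPM in the other 7 libraries (0.92, or 0.31 without positive 1), and CXCL8, a neutrophil chemokine, was at 0.54, or 0.17 without positive 1. Positive 1 was the highest of the 8 libraries for 5 of the 12 targets, where it was highest for 23.9% of all tested rows. For HMGA1, a chromatin protein, positive 1 was the lowest positive library (161.8 CPM, against 221 to 270 CPM in positive 3, 4 and 5 and 157 to 197 CPM in the negative libraries). Its log2 fold change of 0.34 (edgeR adjusted p = 0.404) was 0.47 without positive 1.

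The 8 genes did not move as 1 block. Over the 8 libraries, the Pearson r of a gene's log2-CPM with the mean z-score of the other 7 was 0.92 for FOS and 0.74 for JUNB, 0.50 for NR4A1, 0.47 for EGR1, 0.445 for FOSL1, 0.29 for IER3, 0.18 for JUND and -0.034 for FOSL2, and without positive 1 it was 0.845 for FOS, 0.51 for EGR1, 0.49 for JUNB, 0.27 for FOSL2, 0.11 for JUND, 0.081 for NR4A1, -0.033 for IER3 and -0.46 for FOSL1. These are descriptions over few libraries that share 1 cell line and 1 kit. The genes most like the mean of the 8 were SEPT8 (0.99), ENTHD2 (0.97), GPR141 (0.96), MLLT4 (0.95) and ASGR1 (0.95) over the 8 libraries, and ENTPD1 (0.98), SEPT8 (0.97), CCDC28A (0.96), AOC2 (0.95) and RHOB (0.95), an early gene itself, over the 7 without positive 1. They were picked as the highest r among all tested rows outside the members, so their high r comes from that choice. Several had low counts per library: 6 to 25 for GPR141 and for ENTPD1, 2 to 55 for ASGR1 and 7 to 36 for AOC2.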

How the data were processed

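The authors extracted RNA with Trizol and made libraries with a targeted Ion Torrent amplicon kit for human transcripts, per the labels' protocols. What the authors deposited is a gene table of estimated counts, unscaled and in whole numbers; fastp 0.20.1, Salmon 1.9 and GRCh38 are named in the submitters' processing notes, while neither the annotation nor the summing to genes is stated in the labels. Rows were kept with filterByExpr (minimum count 10, total 15), which left 11351 of 13841, and tested with edgeR 4.0.16 (TMM, quasi-likelihood, robust; R 4.3.3) with Benjamini-Hochberg adjustment at 0.05. Of rows sharing a symbol, the one with the highest mean stood for the gene in counts. Log2-CPM used a prior count of 2. Positions and exons are from GENCODE 29 and promoters from RefSeq.

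The members, lists and tests were chosen with earlier results of these data known. Named were all members and, of each list, the 4 genes of smallest p, and the 5 genes most correlated with the members' mean; 1 gene that this rule names is not reported here. Alternatives were 3 scalings, 2 filters, DESeq2 1.42.0, limma voom 3.58.1 with library weights, robust estimation off, a spline over length and GC content (98.2% of tested rows had both), summed rows of 1 symbol, each library left out, and positive 1 and negative 2 left out together. The fit was tested on simulated counts with known fold changes. No column of the table was left unused.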

Additional observations from a re-analysis of the deposited data

Results flagged for a closer look

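In 4 genes positive 1 lay far from the other 3 positive libraries by Dixon's criterion for the gap to the nearest library: FOSL1 at 23.7 CPM, ATF3 at 73.2 CPM, FOSB at 130.3 CPM and PER1 at 82.9 CPM. In HSPE1, a mitochondrial chaperonin, negative 2 stood apart from the other negative libraries at 942 CPM. Chance alone marks about 1 in 20 groups of 4 in this way. Among all tested rows 7.88% had such a positive library and 7.75% such a negative one, and in 3.84% it was positive 1 as the highest. FOSL1 is a member, whereas ATF3, FOSB, PER1 and HSPE1 had been named from their lists for a small p. The number of flagged genes is therefore not comparable with these shares.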

How the results depend on the processing

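No paired analysis was possible because each library number is used once in the labels. The adjusted p of NR4A1, JUND and the other named genes stayed above 0.05 under every alternative that gave one; DESeq2 gave none for FOSB. DESeq2's Wald test called 52 rows in place of 0, and leaving out single libraries gave 0 to 1 (TBRG1 without negative 6, CBWD5 without negative 8). Library totals in place of TMM moved the median log2 fold change of all rows from -0.019 to 0.10, and then NR4A1 was at 0.80 and JUND at 0.50.

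The number of members at an unadjusted p under 0.05 was 1 after removal of the length and GC curve and 1 to 2 with single libraries left out. Their median log2 fold change was 0.069 with limma voom, which gave positive 1 a weight of 0.335 and negative 2 one of 0.265 (1.04 to 2.83 for the others), -0.051 without positive 1 and negative 2 together, and -0.0024 to 0.39 with single libraries left out. Without positive 1 and negative 2 together the sign also turned for FOS (-0.041), FOSL1 (-0.10), IER3_row1 (-1.29), IER3_row2 and IER3_row3 (-0.062) and DUSP1 (-0.0088), and with limma voom for FOSL1 (-0.044) and IER3_row1 (-1.70). CCDC28A turned with library totals (0.036) and the length and GC curve (0.057). Single libraries left out turned FOSL1 (-0.26 to 0.59), EGR1 (-0.29 to 0.011), IER3_row1 (-0.90 to 1.20), IER3_row2 and IER3_row3 (-0.057 to 0.29), ENTPD1 (-0.10 to 0.58) and CCDC28A (-0.24 to 0.067). The causes were not tested. FOSL1 had 47 to 142 counts per library and IER2 at most 3, and the part of these low counts in the results was not tested.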

Other observations

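The heat shock chaperones, which help proteins fold, had log2 fold changes below 0 in 8 of 12 tested genes, where 51.9% of all rows did. Of the 12, from 14 listed, 0 were higher and 4 lower at an unadjusted p under 0.05, where 6.85% of all rows were lower, and the median was -0.35. Without positive 1 the median was -0.51 and 6 of the 12 were lower, where 5.49% of 11443 rows were. HSPE1 was at -1.08 (95% interval -1.87 to -0.28), or -0.48 without negative 2, HSPD1 at -0.48 (-0.85 to -0.10), HSPB1 at -0.51 (-0.93 to -0.094) and DNAJA1 at -0.41 (-0.82 to -0.0032), with edgeR adjusted p from 0.309 to 0.345. DNAJA1 was at -0.24 (-0.59 to 0.11) without negative 2, its highest library at 622 CPM, and at -0.40 (-0.84 to 0.041) without positive 1. HSPD1, the partner of HSPE1, was at 694, 563, 559 and 476 CPM in positive 1, 3, 4 and 5, against 937, 776, 776 and 700 CPM in negative 2, 6, 7 and 8, without overlap, as in 4.14% of all rows.

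HSPA1A, the inducible HSP70, was named after its values were seen and stood on 2 rows that differ in negative 7 and 8. The row of higher mean, which the counts above use, was at 368, 131, 97.9 and 75.2 CPM in positive 1, 3, 4 and 5, against 153, 137, 234 and 206 CPM in negative 2, 6, 7 and 8. The other row was at 72.2 and 12.7 CPM in negative 7 and 8. Positive 1 was the highest library in both. The log2 fold change was -0.12 in the first row, or -0.85 without positive 1, and 0.84 in the second, or 0.12 without positive 1, so the direction depends on the row and HSPA1A is uncertain.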
